A study of Mus musculus with 2 samples.

Results

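The 6 microRNA loci described here had reads that lay almost entirely on the strand opposite to the one annotated for them. They are Gm24321, Gm25252, Gm25301, Gm24083, Mir299b and Gm25750. They were chosen by their counts, from loci where opposite-strand reads exceeded same-strand reads in both libraries, and they are 6 of the 1973 loci in the tables. In all, 11 loci met that condition with at least 10 reads in each library, and 5 of those are not among the 6. The condition alone therefore does not set the list. On the other strand of each locus the GENCODE M21 annotation places a well-known microRNA, namely Mir409 at Gm24321, Mir376a at Gm25252, Mir378a at Gm25301, Mir191 at Gm24083, Mir299a at Mir299b and Mir380 at Gm25750. None of these 6 microRNAs was analysed here under its own ID, so the opposite-strand counts are the values that bear on them.

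The study sequenced small RNAs, below 30 nucleotides, from whole liver of B6NCrl mouse embryos at embryonic day 14.5. It has 1 group of 2 libraries, replicate 1 and replicate 2, with no treated, mutant or control samples. Each sample is labelled as 1 liver, yet both carry pooled sexes and a single shared donor ID. How far the livers are independent animals is therefore not known, and they were collected on different days, so day and liver cannot be told apart. Replicate 1 held 6395680 reads and replicate 2 held 8068090 reads, of which 2353946 and 3132763 were counted on the strand of a microRNA gene. Levels below are reads per 1000000 reads of these same-strand totals (RPM), not divided by length because a mature microRNA gives reads of about its own short length. A value after ± is the SD over both livers (n = 2).

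A microRNA is cut from a hairpin in a longer transcript, and either arm of the hairpin can become the mature RNA that guides silencing of messenger RNAs through its seed, bases 2 to 8. A hairpin often has a near-mirror hairpin on the other DNA strand, so a locus can be annotated as a microRNA gene in both directions. The Dlk1-Dio3 region of chromosome 12, from which 4 of the 6 come, is imprinted: its microRNAs are made from the copy inherited from the mother and are typical of embryonic tissue, placenta and brain. The fetal liver of this stage holds immature liver cells and is a main site of red cell formation.

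The counts per locus hold no read sequences, so whether the opposite-strand reads are the mature arms below was not tested. Listed here are the sequences of the microRNAs annotated on the other strand. They are RefSeq entries on build GRCm38.p6, written 5′ to 3′ with the seed in capitals, and both arms are given because the counts are per locus and do not tell the arms apart. RefSeq sequences were matched for 5 of the 6, and Mir378a is named only.
miR-409-5p: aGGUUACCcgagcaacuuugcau
miR-409-3p: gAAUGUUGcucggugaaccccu
miR-376a-5p: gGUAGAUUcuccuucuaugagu
miR-376a-3p: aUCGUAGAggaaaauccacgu
miR-191-5p: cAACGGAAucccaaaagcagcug
miR-191-3p: gCUGCACUuggauuucguuccc
miR-299a-5p: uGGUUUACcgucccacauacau
miR-299a-3p: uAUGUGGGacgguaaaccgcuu
miR-380-5p: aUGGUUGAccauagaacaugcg
miR-380-3p: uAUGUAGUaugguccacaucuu
No pair among these 10 shares a seed. Over all mature mouse microRNAs in the RefSeq table, the seed of miR-299a-3p recurred in 1 other, miR-299b-3p, and the other 9 seeds recurred in none.

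The hairpins show how far the strands resemble each other. The first pair below is Mir409, with its mature arms in capitals, and the annotated Gm24321 transcript of GENCODE M21 written as RNA, shown because this locus had the most reads. The second is Mir299a and Mir299b, shown because their strands are nearly the same RNA.
Mir409: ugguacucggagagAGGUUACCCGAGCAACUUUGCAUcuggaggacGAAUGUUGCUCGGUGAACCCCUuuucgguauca
Gm24321: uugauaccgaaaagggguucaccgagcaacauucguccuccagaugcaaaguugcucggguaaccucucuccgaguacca
Mir299a: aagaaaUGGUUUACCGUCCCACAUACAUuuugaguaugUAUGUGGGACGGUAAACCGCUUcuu
Mir299b: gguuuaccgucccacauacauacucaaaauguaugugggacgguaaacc
Because it lies on the opposite strand of the same positions, Gm24321 was the exact reverse complement of Mir409 over all 79 bases of the hairpin. For the same reason Mir299b was the exact reverse complement of Mir299a over its whole length of 49 bases. The Mir299 pair stood apart in one way: 21 of the 22 bases of miR-299a-5p, and 18 of the 22 bases of miR-299a-3p, also occur unbroken on the Mir299b strand. At the other 4 loci with a sequence, no more than 9 bases of a mature arm occur on the strand of the annotated locus, and no more than 10 occur in any other RefSeq hairpin. The counts leave out reads with several mapping positions, and a read lying within the 21 shared bases would fit both strands, so the Mir299b level may be too low.

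Folding of these hairpins differed by strand at some loci and not at others. On the Gm24321 strand the Mir409 hairpin had a predicted minimum free energy of -32.4 kcal/mol, against -37.5 kcal/mol on the Mir409 strand, where a lower value is a more stable fold. The Mir380 hairpin had -20.7 kcal/mol on the Gm25750 strand and -27.9 kcal/mol on its own, and the Mir191 hairpin -30.6 kcal/mol on the Gm24083 strand and -35.0 kcal/mol on its own. The Mir299 hairpin folded almost equally well on both strands, with -42.3 and -42.1 kcal/mol. The Mir376a hairpin went the other way, with -19.1 kcal/mol on the Gm25252 strand, which held no counted read, and -16.6 kcal/mol on the Mir376a strand, which held the reads. Among 1005 RefSeq mouse hairpins the reverse complement folded less stably in 79.1%, with a median difference of 4.70 kcal/mol, and 3 of the 5 loci here were of that kind.

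The strand counts that chose the 6 loci were close to all or nothing. Gm24321, Gm25252, Gm25301, Gm24083 and Gm25750 had no same-strand read in either library. A count of 0 allows up to 3 reads, which for Gm25750, the lowest of them, would be 0.0397% of its reads in replicate 1 and 0.0315% in replicate 2. Mir299b was the exception, with 11056 opposite-strand and 3 same-strand reads in replicate 1 and 16674 and 10 in replicate 2. In replicate 1 its opposite-strand share was 99.97%, with 95% Clopper-Pearson bounds of 99.92 and 99.99, while replicate 2 had 99.94%, with bounds of 99.89 and 99.97. The name "only on the opposite strand" therefore holds for 5 of the 6 in these counts and nearly so for Mir299b, whose share leaves out reads that fit both strands. These bounds and limits describe counting error alone, because PCR copies of 1 molecule are counted as separate reads.

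**Figure D1:**
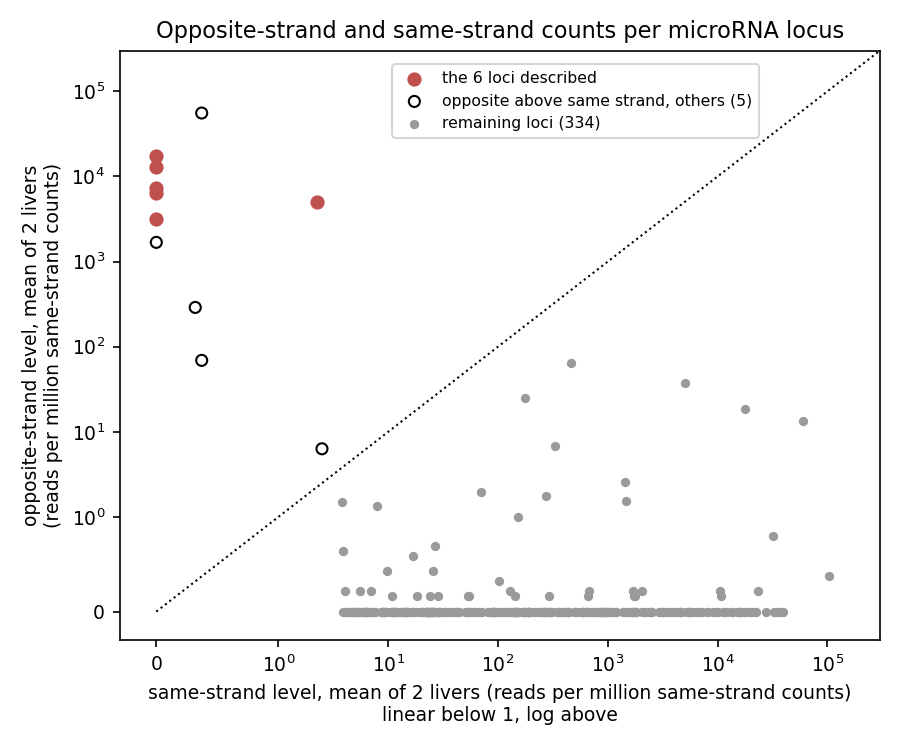
Opposite-strand level (vertical) against same-strand level (horizontal), each the mean of both livers in RPM, on axes that are linear below 1 and logarithmic above, for the loci with at least 10 reads in each library. The 6 loci (red) lie at or near 0 on the horizontal axis, 5 other loci above the dotted line of equality are open circles, and the remaining 334 are grey, most of them at 0 on the vertical axis.

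Elsewhere in the tables opposite-strand reads were rare. Of the 345 loci with at least 10 reads in each library, 334 had no excess on the opposite strand, and 292 of those had no opposite-strand read at all. Over all loci of any read count without an excess in both libraries, opposite-strand reads made up 0.0186% in replicate 1 and 0.0201% in replicate 2. The 6 loci held 47.3% of all opposite-strand reads in replicate 1 and 47.6% in replicate 2. Mir142b, which lies opposite the blood cell microRNA Mir142, held 50.7% and 50.3%. The 4 others with an excess were Gm25927 opposite Mirlet7e (1600 and 1766 RPM in replicates 1 and 2), Mir497b opposite Mir497 (288.9 and 290.2), Gm24111 opposite Mirlet7f-1 (62.0 and 76.3) and Mir129-2 opposite Mir129b (5.95 and 6.70). Nearest to equality on the inner side was Mir129-2, with 14 opposite-strand and 8 same-strand reads in replicate 1 and 21 and 5 in replicate 2. Nearest on the outer side was Mir7654, with 4 and 8 reads in replicate 1 and 4 and 13 in replicate 2. All 11 loci had a microRNA annotated on the other strand, as did 15 detected loci with no such excess. Of these 15, Mir126a, Mir30e, Mir486 and Mir3074-1 were named after their values were seen. For Mir126a and Mir30e the annotated strand held nearly all reads. Mir486 and Mir3074-1 were less one-sided. Mir486 had 139 opposite-strand and 953 same-strand reads in replicate 1 and 220 and 1615 in replicate 2. Mir3074-1 had 54 and 409 reads in replicate 1 and 84 and 564 in replicate 2. Among the 334 loci without an excess, 8 had more than 1% opposite-strand reads in each library.

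Taken as levels, the 6 loci reached the upper part of the range for liver microRNAs. Together they had 50251 opposite-strand RPM in replicate 1 and 54365 in replicate 2, a mean of 52308 ± 2909, equal to 5.23% of the same-strand total. Each stood above 172.6 RPM, the median same-strand level of the 332 loci with at least 10 same-strand reads in each library. Of the other loci with an opposite-strand excess, Mir142b, Gm25927 and Mir497b were also above that median, while Gm24111 and Mir129-2 were below it. The high levels of the 6 thus depend in part on which loci were listed. They spanned 5.59-fold from the highest to the lowest mean.

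Gm24321 (ENSMUSG00000093089, chromosome 12, minus strand, 109743158 to 109743237) was the highest, with this and all later positions on GRCm38. Its reads lie on the plus strand at Mir409 (109743158 to 109743236), in an intron of the long noncoding RNA gene Mirg; the microRNA miR-409 has been studied mostly in human cancer cells. It had 38650 opposite-strand reads in replicate 1 and 58040 in replicate 2, which is 16419 and 18527 RPM, with a mean of 17473 ± 1490. That level would rank 18 among the same-strand levels of all loci and the opposite-strand levels of the 6 loci described here. Ranks of the other described loci use the same pool, which leaves out the opposite-strand levels of further loci, such as Mir142b. The locus closest to it by Euclidean distance of log2 level over the 2 libraries was Mir20a, with 17310 and 18569 RPM.

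Gm25252 (ENSMUSG00000093218, chromosome 12, minus strand, 109723756 to 109723875) came next. It covers Mir376a on the plus strand (109723781 to 109723848), whose RNA is known in mouse and human brain for adenosine-to-inosine editing that changes its targets. It had 29603 and 41027 opposite-strand reads in replicates 1 and 2, or 12576 and 13096 RPM, with a mean of 12836 ± 367.8 and rank 26. Mir93 was closest to it, with 13435 and 13686 RPM.

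Gm24083 (ENSMUSG00000092915, chromosome 9, minus strand, 108568295 to 108568414) covers Mir191 on the plus strand (108568319 to 108568392), which overlaps an exon of the long noncoding RNA gene 4833445I07Rik. In mouse fetal liver red cell precursors, miR-191 is known to fall during maturation, and keeping it high hinders loss of the nucleus. The locus had 14263 opposite-strand reads in replicate 1 and 21464 in replicate 2, or 6059 and 6851 RPM, with a mean of 6455 ± 560.2 and rank 42. The closest locus was Mir15b, with 6498 and 6649 RPM.

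Mir299b (ENSMUSG00000093291, chromosome 12, minus strand, 109710645 to 109710693) lies within Mir299a on the plus strand (109710638 to 109710700). It had 4697 and 5322 opposite-strand RPM in replicates 1 and 2, with a mean of 5010 ± 442.4 and rank 50, and was closest to Mir337 (4881 and 5123 RPM). Its own strand had 1.27 and 3.19 RPM. Gm25750 (ENSMUSG00000093224, chromosome 12, minus strand, 109711779 to 109711890) was the lowest of the 6. It covers Mir380 on the plus strand (109711803 to 109711863), which is known in mouse and human to repress the tumour suppressor p53. It had 7563 and 9521 opposite-strand reads, or 3213 and 3039 RPM, with a mean of 3126 ± 122.8 and rank 65. Mir98 was closest, with 3204 and 3216 RPM.

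Gm25301 (ENSMUSG00000093026, plus strand) is the locus on chromosome 18, from 61397813 to 61397925. It covers Mir378a on the minus strand (61397835 to 61397900), in an intron of Ppargc1b, which encodes a coactivator of genes of energy metabolism, and miR-378a is known in mouse to act on the same processes. It had 17152 opposite-strand reads in replicate 1 and 23587 in replicate 2, or 7286 and 7529 RPM, with a mean of 7408 ± 171.6 and rank 37. Mir16-1 was closest, with 7337 and 7134 RPM. Another 3 loci of the Mir378 family were near the limit of detection on their own strand: Mir378b had 2.12 and 1.28 RPM in replicates 1 and 2, Mir378c 0.850 and 0.958, and Mir378d 3.82 and 4.15. Reads with several mapping positions were not counted, and stretches that Mir378a shares with other loci were not examined. The levels of Gm25301 and of these loci may therefore be too low.

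**Figure D2:**
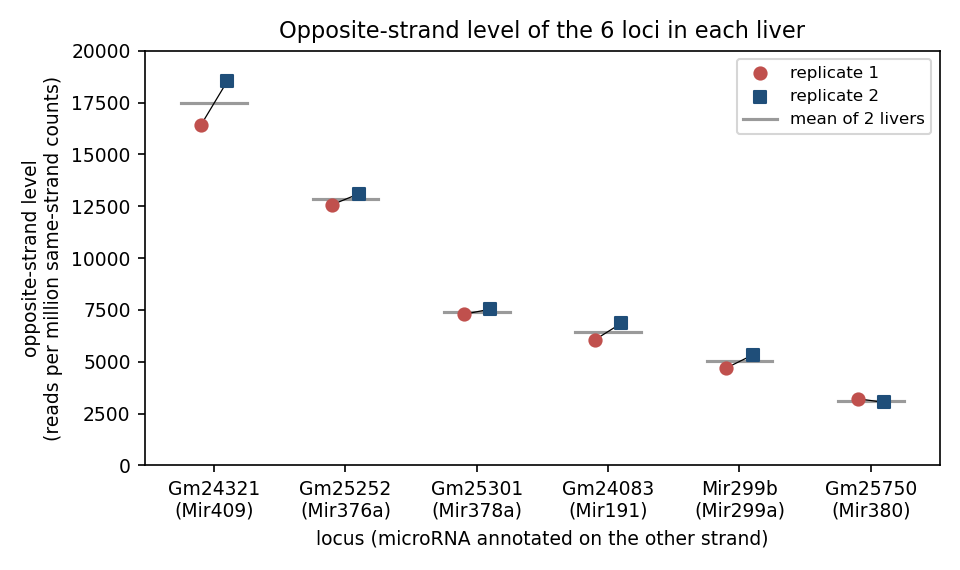
Opposite-strand level of each of the 6 loci (vertical axis, RPM, linear from 0) in replicate 1 (red circles) and replicate 2 (blue squares), with the mean as a grey bar, named with the microRNA on the other strand. The order runs from Gm24321, at 16419 and 18527, to Gm25750, at 3213 and 3039, and neighbours in the order do not overlap.

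The order of the 6 loci was the same in both livers. For every pair of neighbours in the order, the lower library of the higher locus stood above the higher library of the lower one. The narrowest step was from Gm25301 to Gm24083, a 1.15-fold difference of 952.5 RPM, with SDs of 171.6 and 560.2. The widest was from Gm25252 to Gm25301, at 1.73-fold. Since the loci were chosen on these counts, the order is a description.

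Of the 6 loci, 4 belong to the distal microRNA cluster of the Dlk1-Dio3 region. Beside the 33 cluster loci that have rows of their own, Gm24321, Gm25252, Mir299b and Gm25750 held 21.9% of the reads of the 37 loci in replicate 1, with 95% Clopper-Pearson bounds of 21.7 and 22.0. In replicate 2 they held 22.2%, with bounds of 22.1 and 22.3. The cluster's same-strand level was 131900 RPM in replicate 1 and 140122 in replicate 2, and with the 4 loci it came to 168805 and 180107. By mean level Gm24321 would have rank 2 in the cluster after Mir411 (38455 and 40310 RPM in replicates 1 and 2). Gm25252 would have rank 5, Mir299b rank 11 and Gm25750 rank 13 of 37. Mir376b, listed in the cluster but without a row of its own, is not among the 37.

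**Figure D3:**
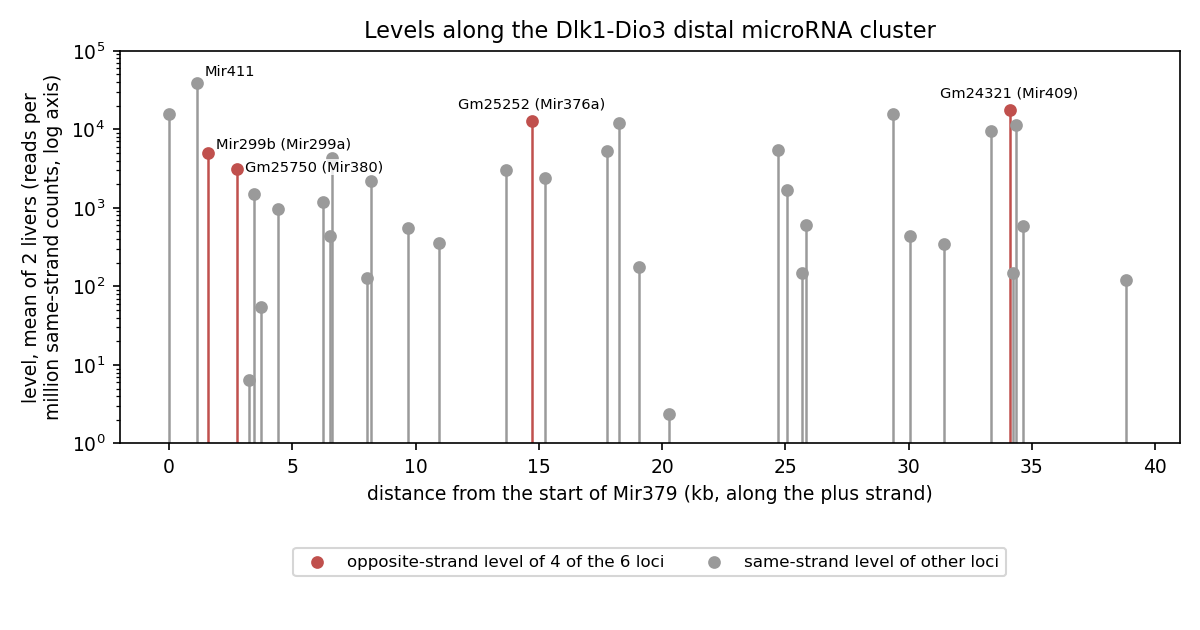
Mean level over both livers (log axis, RPM) against distance from the start of Mir379 in kb, for the cluster loci with any read. Red points are the opposite-strand levels of 4 of the 6 loci, grey points the same-strand levels of the other loci, and the red points at 17473 and 12836 RPM have ranks 2 and 5 in height.

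Immediate neighbours in the cluster had very different levels. Mir411, 381 bases before Mir299a, had 39382 ± 1312 RPM, while Mir1197, 453 bases after Mir380, had 8.07 and 4.79 RPM in replicates 1 and 2. Mir412 starts 52 bases beyond Mir409 and had 135.5 and 159.3 RPM, far below Gm24321. Mir541, 659 bases before Mir409, had 8936 and 10243 RPM. Around Mir376a, its relative Mir376c had 2987 and 3027 RPM and Mir300 had 2318 and 2484, both below Gm25252 in each library. Outside the cluster, Mir425, 384 bases beyond Mir191, had 5415 and 5680 RPM, close to Gm24083. No other detected microRNA lay within 10 kb of Mir378a.

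The libraries could also be compared with each other, a contrast that the choice of the loci did not use. Differences between the livers were small at all 6 loci, from 11.8% lower to 5.72% higher in replicate 1. With a two-sided exact binomial test on the read counts and Benjamini-Hochberg adjustment over 349 strand-specific counts of at least 10 in each library, all 6 loci passed an adjusted p of 0.05, 5 of them lower in replicate 1 and 1 higher. Among all counts tested 42.7% passed, 24.6% as lower and 18.1% as higher in replicate 1. The test gains power with depth, and among counts of at least 1000 in each library, a minimum chosen after the data were seen, 79.3% passed. At that share, the number of the 6 that passed is not read as a result about them. The test compares these libraries and not conditions. Its p-values and intervals, and those of the Fisher tests of pairs, cover counting error only: they take each read as independent, which PCR copies are not, and hold no estimate of the spread between livers. In whole tissue fewer cells of a type and less RNA per cell cannot be told apart.

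Ratios of Mir299b, Gm24083 and Gm24321 were nearly the same in these libraries. Mir299b had 0.882 of its replicate 2 level in replicate 1 (95% exact interval 0.861 to 0.904), Gm24083 had 0.884 (0.866 to 0.903) and Gm24321 had 0.886 (0.875 to 0.898). By the exact binomial test the adjusted p was 1.4e-23 for Mir299b, 4.1e-29 for Gm24083 and 1.1e-74 for Gm24321. Gm25252 had a ratio of 0.960 (0.946 to 0.975, exact binomial adjusted p = 5.5e-07) and Gm25301 of 0.968 (0.949 to 0.987, exact binomial adjusted p = 0.0035). Gm25750 alone was higher in replicate 1, with a ratio of 1.06 (1.03 to 1.09, exact binomial adjusted p = 0.0011). The median ratio of the 6 was 0.923, beside 0.976 over all counts tested, whose quartiles were 0.887 and 1.11.

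Scaling mattered for the smallest of these differences. By TMM factors 38.7% of all counts passed and 5 of the 6 loci did, without Gm25301 (ratio 0.99, exact binomial adjusted p = 0.47). By DESeq2 size factors 38.4% passed and 4 of the 6 did, without Gm25301 (0.992, exact binomial adjusted p = 0.59) and Gm25252 (0.984, exact binomial adjusted p = 0.092). Among all counts, 63 were higher and 86 lower in replicate 1 by same-strand totals, against 70 and 65 by TMM and 70 and 64 by DESeq2 scaling. No ratio of the 6 changed sides of 1 under either scaling.

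Comparing loci within the libraries needs no scaling, and 24 such pairs were tested by a two-sided Fisher's exact test with adjustment over the 24. Of the 15 pairs among the 6 loci, 11 differed beyond counting error in these libraries. How many pairs of other loci would differ was not tested, so this number is not read as a result about the 6. Gm25750 was in 5 of the 11, with each of the other loci: the ratio of Mir299b, which lies next to it in the same cluster, was 0.835 times that of Gm25750 (95% Wald interval 0.803 to 0.868, Fisher's exact adjusted p = 3.8e-19). The ratios of Gm24321 and Gm24083, on different chromosomes, were 1.00 times each other (0.978 to 1.03, Fisher's exact adjusted p = 0.90). The ratios of Gm25252 and Gm25301 were likewise 0.992 times each other (0.968 to 1.02, Fisher's exact adjusted p = 0.65).

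Set against their nearest detected neighbours, 3 of 9 pairs differed beyond counting error, a number that likewise has no share over other pairs beside it. Gm24083 had 0.928 times the ratio of Mir425 (0.899 to 0.957, Fisher's exact adjusted p = 3.8e-06), Mir299b 0.925 times that of Mir411 (0.902 to 0.949, Fisher's exact adjusted p = 5.5e-09) and Gm25750 1.11 times that of Mir411 (1.07 to 1.14, Fisher's exact adjusted p = 6.1e-10). For Gm24321 the ratio was 1.02 times that of Mir541 (0.994 to 1.04, Fisher's exact adjusted p = 0.21) and 1.04 times that of Mir412 (0.905 to 1.2, Fisher's exact adjusted p = 0.68). For Gm25252 it was 0.973 times that of Mir376c (0.940 to 1.01, Fisher's exact adjusted p = 0.18) and 1.03 times that of Mir300 (0.991 to 1.07, Fisher's exact adjusted p = 0.20). The pairs with Mir1197 rest on 19 and 15 reads and had wide intervals, 0.266 to 1.03 for Mir299b and 0.318 to 1.23 for Gm25750.

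**Figure D4:**
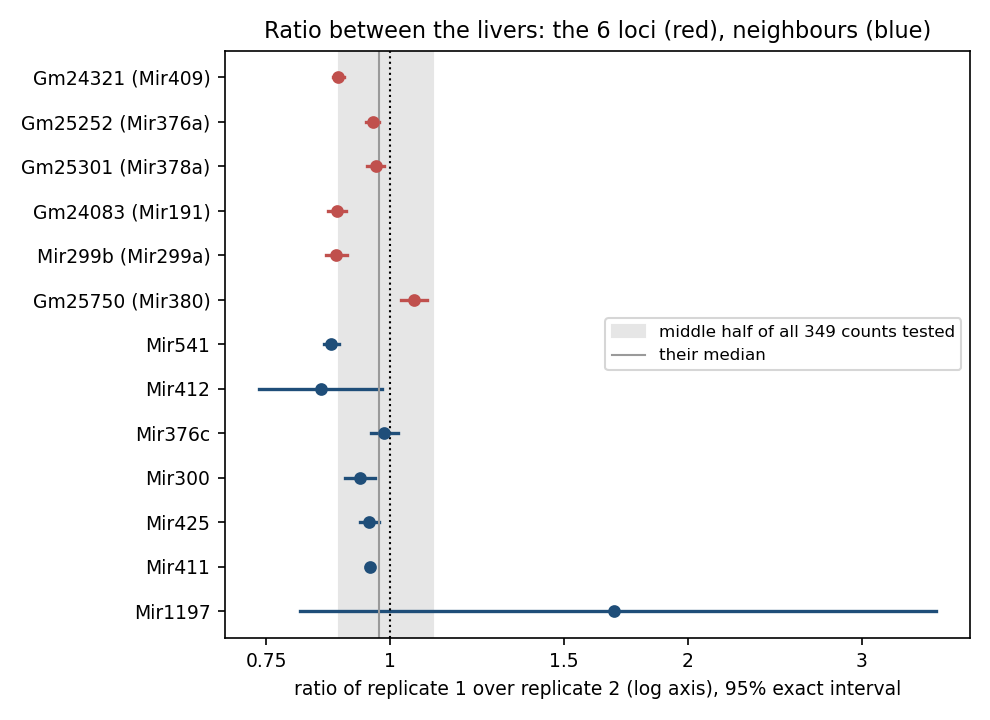
Ratio of replicate 1 over replicate 2 (log axis) with its 95% exact interval for the 6 loci (red) and their nearest detected neighbours (blue). The grey band spans the quartiles of the 349 strand-specific counts tested, 0.887 to 1.11, the grey line their median and the dotted line equality; Gm25750, at 1.06, is the one red point right of the dotted line.

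The 3 larger of the 4 loci in the Dlk1-Dio3 distal cluster were lower in replicate 1, though Gm25252 did not pass by DESeq2 scaling. Of the 30 other detected loci of the cluster, 18 were lower and 2 higher in replicate 1 by the exact binomial test, with a median ratio of 0.921. Among all counts tested 24.6% passed as lower and 18.1% as higher, and among counts of at least 1000 in each library 79.3% passed in either direction. By TMM scaling 13 were lower and 3 higher, and by DESeq2 size factors 13 were lower and 3 higher. Over all counts 38.7% passed by TMM and 38.4% by DESeq2 scaling, in either direction. The lowest ratios among those that passed were those of Mir3072 (0.692, 98.6 and 142.4 RPM in replicates 1 and 2), Mir667 (0.781, 314.8 and 402.8) and Mir485 (0.808, 534.4 and 661.7). By same-strand totals the 2 that were higher in replicate 1 were Mir496a (1.15, 473.2 and 410.2 RPM) and Mir1193 (1.05, 4370 and 4172). Gm25750 was therefore not the only cluster locus that was higher in replicate 1.

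Summed levels of cell type markers also differed between the livers, though not every marker did. The tissue label held, with Mir122, the microRNA typical of hepatocytes, at 97349 RPM in replicate 1 and 110371 in replicate 2. The summed level of 3 hepatocyte markers was 103914 and 117327 RPM, that of 2 red cell markers (Mir451a and Mir144) 49613 and 39515, and that of 3 white cell markers, among them Mir223, 11928 and 11289. The 9 neural markers with a row, 4 of them detected, came to 562.5 RPM in replicate 1 and 237.2 in replicate 2, with Mir124a-2, Mir124a-3 and Mir9-2 at 0 in both. The 6 muscle markers with a row, 3 of them detected, came to 310.5 and 276.4, with Mir1a-1, Mir133a-1 and Mir133a-2 at 0 in both. By the exact binomial test 3 of 3 hepatocyte markers were lower in replicate 1. Higher in replicate 1 were 2 of 2 red cell, 1 of 3 white cell, 3 of 4 detected neural and 1 of 3 detected muscle markers. Among all counts tested 42.7% passed in either direction. The part of these markers in the differences at the 6 loci was not tested.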

How the data were processed

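Per the labels and the notes deposited with the files, small RNA libraries were mapped to mm10 with annotation M4, each table from its own alignment. The sources used here do not name the aligner or the counter. The authors deposited raw counts per locus, regardless of strand, on the annotated strand and on the opposite strand. Totals exclude the rows without a gene (18.6% and 17.7% of reads unmapped, 34.0% and 33.1% mapped to several places in replicates 1 and 2). Of 1973 loci, 1894 matched GENCODE M21 of GRCm38, the same assembly as mm10.

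Levels are counts per 1000000 counts of the same-strand total (RPM), where a count of 0 allows 1.27 (replicate 1) and 0.958 (replicate 2) RPM. Libraries were compared with exact binomial and Fisher tests (SciPy 1.17.1), scaled by same-strand totals or, as alternatives, by edgeR 4.0.16 TMM or DESeq2 1.42.0 size factors. Hairpins were folded with RNAfold 2.7.2. Other alternatives were count minimums, denominators, counts regardless of strand and leaving out each replicate. The binomial test was tested on simulated data. The loci and lists were chosen with earlier results of these data known. Named genes were the 6 loci, microRNAs on their other strand, nearest detected neighbours within 10 kb, microRNAs with the same seed, the locus closest in level, other loci with an opposite-strand excess and at least 100 such reads, the 3 largest ratios each way in the related lists, and liver markers. Outside this rule, Mir129-2 and Mir7654 were named as the loci nearest to equal strand counts, and Mir126a, Mir30e, Mir486 and Mir3074-1 after their values were seen. The Fisher tests were added after the data were seen.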

Additional observations from a re-analysis of the deposited data

How the results depend on the processing

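No paired analysis was possible because there is 1 group, so no replicate number recurs between groups. The summed level of the 6 loci depends on what it is divided by: against 52308 RPM by the same-strand total, it was 47109 by the total regardless of strand, 19802 by all reads and 58390 by the same-strand total without Mir122. Counting reads regardless of strand gave 52310, and single livers gave 50251 to 54365. All 6 loci passed the test with minimums of 1, 100 and 1000 counts and with opposite-strand counts adjusted alone, 5 passed by TMM and 4 by DESeq2 scaling. TMM and DESeq2 scaling each multiplied every ratio by 1.02. In the rest of the Dlk1-Dio3 cluster 2 loci were higher in replicate 1 by same-strand totals and 3 by either of these scalings. Taking totals regardless of strand changed none of the 6 calls. The rank of Gm24321 was 18, with 17 and 20 in single livers and 19 among counts regardless of strand. The cluster share was 22.0% with either way of counting. Reads that map to several places were not counted, and how many were lost at each locus is not known.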
